A study of Homo sapiens with 13 samples.

Results

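The nuclear genes of respiratory complexes I to IV were described across 13 RNA-seq libraries made from a human embryonic stem cell line as it was turned into neurons. The genes were taken by symbol: protein-coding genes named NDUFA, NDUFB, NDUFC, NDUFS or NDUFV with a number, SDHA to SDHD, UQCR with any ending, and COX4 to COX8 with any ending. That rule, which used no measured value, found 64 of the 60639 genes in the count tables. By textbook position 36 belong to complex I, 4 to complex II, 9 to complex III and 15 to complex IV, with NDUFA4 and NDUFA4L2 counted in complex IV. A further 23 matching symbols were pseudogenes or other gene types and were left out. The symbols came from the deposited tables that pair them with gene IDs. COX4I2, COX6A2, COX7B2, COX8C and NDUFC2-KCTD14 took their matching names from the reference annotation instead and are not among the 64, although the count tables hold their IDs and some of their counts are given for comparison.

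All cells came from H9, a human embryonic stem cell line, stably carrying NEUROG2 (a proneural transcription factor that drives neuron formation) under the control of doxycycline. In the doxycycline set (line label hES-N1) there was 1 library for each of 5 groups: day 0, day 5 without and with 1 ug/ml doxycycline, and day 11 without and with it. The FGF2 set (labels hES-N2G1 and hES-N2G2) had 4 groups of 2 libraries, and all of its cells had doxycycline for the first 6 days. Day-6 cells were grown with or without FGF2 (fibroblast growth factor 2, at 20 ug/ml as the labels print it, a concentration not checked otherwise) for those 6 days, and day-12 cells with or without it in the final 6 days, when doxycycline was no longer given. For the day-12 controls the labels disagree: the free text opens with 6 days of growth but goes on to list 2, 4 and 6 days of culture, and the titles and tags give day 12, which was followed. Each library came from 1 culture well. Nothing in the labels says whether hES-N2G1 and hES-N2G2 are separate cultures, so p-values in the FGF2 set measure the spread between these samples, which may be technical.

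Complexes I to IV form the electron transport chain of the inner mitochondrial membrane. Complex I takes electrons from NADH and complex II from succinate, both pass them to coenzyme Q, complex III hands them to cytochrome c, and complex IV gives them to oxygen. Complexes I, III and IV combine subunits of mitochondrial and of nuclear genes, whereas complex II is wholly nuclear. Neurons are known to depend on this chain, while pluripotent stem cells are known for active glycolysis.

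NEUROG2, the induced gene, was at 0.456, 1.34 and 6.26 CPM without doxycycline in the order day 0, day 5 and day 11, and at 1560 and 1020 CPM with it on days 5 and 11 (CPM is the count as a share of the library, scaled by the TMM method to 1000000 in all). In the FGF2 set it was at 7540 to 7830 CPM on day 6 and 49.3 to 54.7 CPM on day 12. Library totals ran from 28443657 to 47159475 counts in the doxycycline set and from 22802501 to 30014661 in the FGF2 set. Summed over 10 neuronal markers, the doxycycline libraries held 15620 and 18440 CPM, against 79.5 to 355.9 CPM in the 3 libraries without doxycycline. Of the 10, 4 were above 0 and 6 below on the log2 scale for day 11 against day 5 with doxycycline (median -0.04). The FGF2 set held 9642 to 9986 CPM on day 6 and 20730 to 24330 CPM on day 12. There 7 of the 10 were called higher and 1 lower without FGF2, against 31.7% and 32.3% of all genes, and 7 and 2 with it (32.6% and 32.9%). TUBB3 went from 239 to 316 CPM on day 6 to 112 to 136 CPM on day 12. Markers of dividing cells were at 282.5 to 407.2 CPM on day 6 and 7.675 to 10.54 CPM on day 12. Summed over 8 glial markers the FGF2 set held 60.6 to 65.91 CPM on day 6 and 39.95 to 51.14 CPM on day 12. Among them GFAP, the defining astroglial marker, was at 0.112 CPM or less, OLIG2 went from 23.1 to 27.0 CPM on day 6 to 5.8 to 10.6 CPM on day 12, and MBP from 15.9 to 18.5 CPM to 27.7 to 33.1 CPM. Of 8 heart and skeletal muscle markers, ACTC1 alone was high there on day 6 (511 to 587 CPM) and fell to 2.15 to 2.83 CPM on day 12, while MYH6 and MYH7 were at 0.384 CPM or less. The day-11 library without doxycycline had 38.9 CPM of POU5F1, a pluripotency factor, against 654 CPM on day 5 without it. Of 7 pluripotency markers 6 were at least 2-fold lower there than on day 0, against 8.41% of all genes. LIN28A was at 1200 CPM in both. Of 6 neuronal markers with at least 10 CPM, 1 was higher (MAP2, 234 against 8.23 CPM) and 1 lower. Of 3 such progenitor markers 1 was higher (PAX6, 101 against 1.32 CPM) and 0 lower, where 5.77% of all genes were higher. In bulk RNA, fewer cells of a type and less RNA per cell cannot be told apart, and the part of these shifts in cell makeup in the results below was not tested.

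The second day-6 FGF2 library stood apart. The replicates of that group differed by 21.4 times what counting noise gives (chi-square per degree of freedom over genes), against 3.03 to 3.46 in the other 3 pairs. The complex I to IV genes were high in it as a group: of 58 with a mean of at least 10 CPM in the day-6 controls, 56 were at their highest there among the 4 day-6 libraries, against 44.1% of 10122 genes. Many, but not all, of the counts and values that rest on this pair are given with and without each library.

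The promoter stretches below belong to genes that changed between day 6 and day 12 and show what the sequence search found beside those changes. RefSeq promoters (build GRCh38.p14) were found for 52 of the 64 genes and searched over the 250 bases before each start, on both strands. An NRF1 motif (GCGCA, any base, GCGC), the site of a factor known for respiratory genes, was found in 16.4% of the 61 promoters of these 52 genes (some have several), against 5.07% of 35116 RefSeq promoters. The ETS motif CCGGAAG, bound by NRF2/GABP among others, was found in 23.0% against 8.52%, and the GC box GGGCGG in 62.3% against 42.6%. The YY1 motif AANATGGCG and the CRE motif TGACGTCA were each found in 3.28%, against 1.38% and 1.65% of promoters, and the ERR motif TCAAGGTCA for 0 of 52 against 0.319%. Matches of different motifs may overlap, and each describes the letters only. Sequences run 5′ to 3′ towards the start, stop where the first annotated exon begins, and carry NRF1 or ETS matches in capitals. NDUFB10 (chr16:1959288-1959507, plus strand), with the largest fall in complex I, has neither match in this stretch. NDUFB4 (chr3:120596086-120596308, plus strand), which fell (not called without the first day-12 control, adjusted p 0.0841, or the second day-6 control, 0.0698), has NRF1 matches at 159 to 150 and at 63 to 54 bases before the start. COX5B (chr2:97645812-97646039, plus strand), which fell, has an ETS match at 37 to 31 bases, and NDUFA10 (chr2:240025403-240025592, minus strand), which rose, has neither.
NDUFB10: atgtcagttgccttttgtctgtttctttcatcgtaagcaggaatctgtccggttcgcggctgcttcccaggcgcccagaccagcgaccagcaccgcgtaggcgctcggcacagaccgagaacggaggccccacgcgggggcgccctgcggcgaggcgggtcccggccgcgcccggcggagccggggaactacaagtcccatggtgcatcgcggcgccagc
NDUFB4: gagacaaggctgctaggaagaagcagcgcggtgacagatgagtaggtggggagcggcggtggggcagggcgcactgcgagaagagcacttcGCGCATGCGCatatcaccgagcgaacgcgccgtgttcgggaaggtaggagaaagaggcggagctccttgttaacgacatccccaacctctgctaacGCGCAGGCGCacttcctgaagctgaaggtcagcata
COX5B: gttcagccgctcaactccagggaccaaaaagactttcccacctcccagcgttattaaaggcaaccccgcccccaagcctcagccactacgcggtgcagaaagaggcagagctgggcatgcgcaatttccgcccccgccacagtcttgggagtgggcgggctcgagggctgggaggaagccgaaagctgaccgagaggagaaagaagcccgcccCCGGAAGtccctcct
NDUFA10: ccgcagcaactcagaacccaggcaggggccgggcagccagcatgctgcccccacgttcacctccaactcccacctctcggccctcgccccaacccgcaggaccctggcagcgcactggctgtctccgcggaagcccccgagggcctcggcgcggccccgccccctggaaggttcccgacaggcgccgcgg

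Levels per kilobase of exon show how far these genes stood from each other. In the day-6 controls of the FGF2 set, NDUFS5, an accessory subunit, was the highest in complex I (283 CPM per kilobase) and NDUFV2, a core subunit of the NADH-binding end, the lowest (0.309). In complex II the order ran from SDHB (17.5) through SDHA (6.17) to SDHD (4.39) and SDHC (4.22). Complex III ran from UQCR10 (106) to UQCRB (14.6), and complex IV from COX8A (228) to COX7A1 (0.0214). NDUFV2 had 12 to 25 counts per library in this set and NDUFA7 11 to 22 counts. Exons of other genes cover 28.4% of the exon bases of NDUFV2 and 33.5% of those of NDUFA7, the kit did not mark strand, and how shared reads were counted is not given in the sources used here, so their levels are uncertain.

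Several complex IV subunits have a widespread form and a form known from other tissues, and the widespread form carried nearly all counts in the FGF2 set. COX7A2 had 169.9 to 227 CPM, whereas COX7A1, the heart and skeletal muscle form, had 0 to 2 counts a library. COX4I1 had 245 to 417 CPM, while COX4I2, known from lung, had 0 to 3 counts. COX6A1 had 44.8 to 62.0 CPM and COX6A2, the muscle form, had 0 counts in all 8 libraries. The testis forms were as scarce. COX7B had 83.8 to 141 CPM against 0 to 1 counts for COX7B2, and COX8A had 70.3 to 147 CPM against 1 to 9 counts for COX8C. In complex III, UQCRHL, an intronless copy of UQCRH that can share its reads, had 29.5 to 44.1 CPM beside 82.3 to 125 CPM for UQCRH, so the split between the pair is uncertain.

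COX6B2, known as the testis form of COX6B1, was the exception in the libraries without doxycycline. It had 3.06 CPM on day 0, 16.5 CPM on day 5 and 1.93 CPM on day 11 without doxycycline, and 0.508 and 0.455 CPM on days 5 and 11 with it. The day-5 library without doxycycline stood above the other 4, at 5.38 times the day-0 level (95% exact binomial interval 4.41 to 6.61). Such intervals cover counting error only, since reads without molecular identifiers are not independent molecules. In the FGF2 set it had 1 to 11 counts a library, and exons of other genes cover 30.9% of its exon bases.

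Between day 6 and day 12 of neuron formation 33 of these genes fell and 6 rose. That is the count without FGF2 among the 62 genes tested (edgeR quasi-likelihood test, Benjamini-Hochberg adjusted p under 0.05). Of all 20142 genes tested, 32.3% were lower, 31.7% higher and 64.0% changed in either direction, so the share of these genes that changed (62.9%) was near that of all genes, with more of it on the lower side. Their median log2 change was -0.26, beside -0.0045 for all genes and -0.0566 for all genes with a mean of at least 10 CPM. The lower count rested partly on single libraries: it was smaller without the second day-6 control or without the first day-12 control. It was larger without either of the day-6 FGF2 libraries. Neither of those is part of this comparison, but the fit estimates the spread over all 8 libraries.

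In the arm with FGF2, which shares no sample with the arm without it, 38 genes fell and 6 rose, against 32.9% and 32.6% of all genes (65.5% in either direction), with a median of -0.35. The same 6 genes rose in both arms, and 31 fell in both, which is 93.9% of the 33 and 81.6% of the 38. The matching share of all genes called in both arms was not computed, so this overlap is not read as particular to these genes. With each library left out in turn, 17 to 42 fell in both arms and 3 to 6 rose in both, the 17 without the first day-12 control, 19 without the second day-6 control and 42 without the first day-6 FGF2 library. Without the first day-12 FGF2 library the count of rises was 3, and NDUFA10, SDHA and NDUFA4L2 lost their calls (adjusted p 0.136, 0.14 and 0.0715). Without the first day-6 FGF2 library 50 genes were lower and 5 higher, against 32.3% and 31.4% of all genes, and without the second 31 and 6, against 30.4% and 29.9%.

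Complex II split by subunit. SDHD, one of its membrane anchors (chr11:112086773-112120013, plus strand, GRCh38), had 12.5 and 12.4 CPM in the day-6 controls and 6.45 and 6.23 CPM in the day-12 controls. With FGF2 it had 12.8 and 15.6 CPM on day 6 and 4.94 and 5.97 CPM on day 12. All 4 day-12 libraries were below all 4 day-6 ones, by -0.97 (SE 0.15, adjusted p 3.95e-05) on the log2 scale without FGF2 and -1.37 (SE 0.15, adjusted p 7.94e-07) with it. Without the first day-6 FGF2 library the value for SDHD with FGF2 was -1.52, and without the second -1.23. Exons of other genes cover 12.2% of its exon bases. SDHB, the iron-sulphur subunit, went from 41.3 and 44.9 CPM to 29.8 and 30.8 CPM without FGF2 and fell by 0.51 (SE 0.10, adjusted p 0.000449). SDHC, the other membrane anchor, had 59.7 and 59.8 CPM and then 62.4 and 65.9 CPM, a difference of 0.10 (SE 0.0793, adjusted p 0.272) that did not pass the test. SDHA, the flavoprotein that oxidises succinate (chr5:218241-256700, plus strand), went from 53.9 and 49.5 CPM to 61.8 and 59.4 CPM and rose by 0.23 (SE 0.0859, adjusted p 0.0296). Its rise was the only one of the 6 without FGF2 to lose its call when a library was left out: without any 1 library of the day-6 controls, the day-12 controls or the day-12 FGF2 group, its adjusted p was 0.0515 to 0.238. SDHA also has pseudogene copies that can share its reads.

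**Figure D1:**
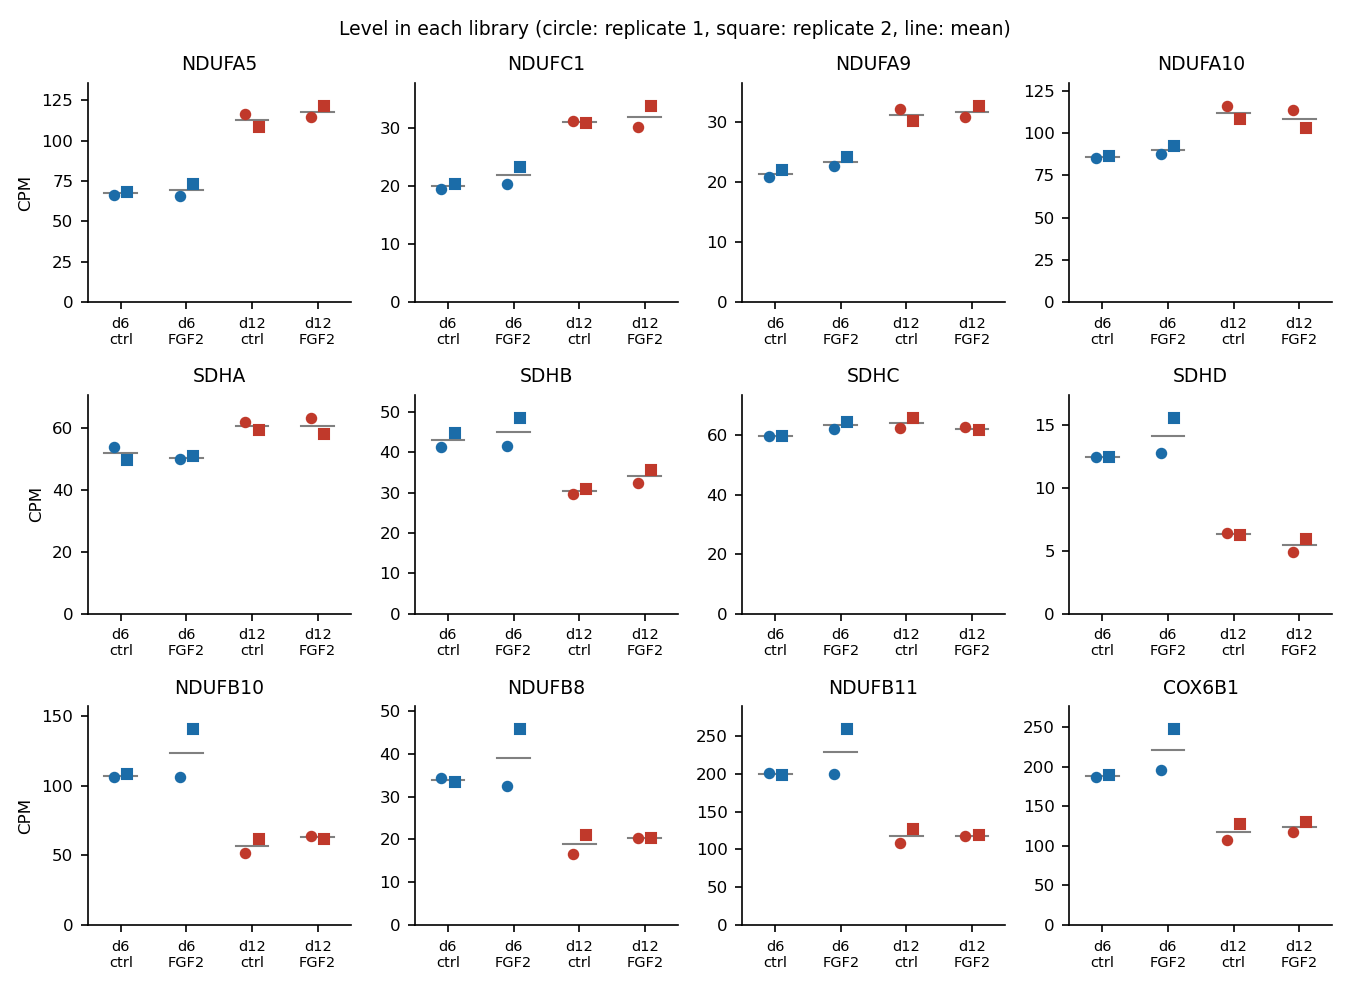
Level in CPM (vertical axes, from 0) of 12 genes in the 8 libraries of the FGF2 set, with day-6 groups in blue, day-12 groups in red, circles for replicate 1, squares for replicate 2 and a line at each group mean. NDUFA5, NDUFC1, NDUFA9 and NDUFA10 sit higher on day 12, SDHD, NDUFB10, NDUFB8, NDUFB11 and COX6B1 sit lower, and the second day-6 FGF2 library is the highest point for those 5.

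In the part of complex I that reduces coenzyme Q (the Q module), the direction differed from gene to gene. NDUFA5 (chr7:123536997-123558255, minus strand), an accessory subunit of that part, had 66.4 and 68.2 CPM in the day-6 controls and 116 and 109 CPM in the day-12 controls. It rose by 0.74 (SE 0.0829, adjusted p 1.33e-06) without FGF2 and by 0.77 (SE 0.0822, adjusted p 8.01e-07) with FGF2. The value with FGF2 was 0.69 without the first day-6 FGF2 library and 0.84 without the second. NDUFA9 (chr12:4649095-4694317, plus strand), another accessory subunit there, went from 20.8 and 22.0 CPM to 32.3 and 30.3 CPM, a rise of 0.55 (SE 0.0977, adjusted p 0.000164). Core subunits of the same part did not follow. NDUFS7 fell in both arms, NDUFS8 fell in the arm with FGF2 (log2 change -0.63 without the first day-6 FGF2 library and -0.27 without the second, both called), and NDUFS3 passed the test in neither. NDUFS7, which carries the last iron-sulphur cluster before coenzyme Q, had 40.4 and 36.6 CPM on day 6 and 28.6 and 29.7 CPM on day 12 without FGF2 (-0.40, SE 0.0989, adjusted p 0.0024), and exons of other genes cover 49.1% of its exon bases.

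At the end that oxidises NADH (the N module), 4 of 10 genes fell in each arm and none rose, against 32.3% of all genes lower without FGF2 and 32.9% with it. The median with FGF2 was -0.21, or -0.41 without the first day-6 FGF2 library and -0.05 without the second. NDUFV1, which holds the flavin that accepts electrons from NADH, had 124 and 128 CPM on day 6 and 86.7 and 92.7 CPM on day 12, a log2 change of -0.49 (SE 0.0905, adjusted p 0.000217). NDUFS1, the largest iron-sulphur subunit, had 174 and 165 CPM and then 148 and 146 CPM and fell by 0.20 (SE 0.0736, adjusted p 0.0245). With FGF2 the value for NDUFS1 was -0.07 (adjusted p 0.442), which did not pass the test. Its fall without FGF2 lost its call without any 1 of the 4 control libraries (adjusted p 0.0565 to 0.162). NDUFA6, an accessory subunit, had the largest fall of this end without FGF2, at -0.58 (SE 0.0898, adjusted p 4.09e-05).

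The membrane arm of complex I held the most falls. In its distal part 9 of 11 genes fell in each arm, with a median of -0.42 without FGF2 and -0.68 with it. The count without FGF2 rested partly on single libraries. NDUFB2 (-0.25), NDUFB4 (-0.27), NDUFB6 (-0.31) and NDUFB9 (-0.31) lost their calls without the first day-12 control. So did NDUFB2 (-0.33), NDUFB4 (-0.29) and NDUFB6 (-0.22) without the second day-6 control. NDUFB6 also lost its call without the second day-12 control, and NDUFB2 without the first day-6 control. With FGF2, 10 fell without the first day-6 FGF2 library (median -0.82) and 8 without the second (-0.54). NDUFB10 (chr16:1959508-1961975, plus strand), an accessory subunit there, had 106 and 108 CPM on day 6 and 51.6 and 61.9 CPM on day 12, a change of -0.92 (SE 0.12, adjusted p 6.03e-06). NDUFB5 fell by 0.81 (SE 0.10), and NDUFB8 and NDUFB11, of whose exon bases other genes cover 48.5% and 44.9%, fell by 0.85 (SE 0.15) and 0.77 (SE 0.11). NDUFB1 (0.27, adjusted p 0.0693) and NDUFB7 (-0.27, adjusted p 0.0685) did not pass the test without FGF2, and with it NDUFB7 fell by 0.78 (adjusted p 4.52e-05), or by 0.95 and 0.61 without the first and the second day-6 FGF2 library. In the proximal part 5 of 9 genes fell without FGF2, led by NDUFS5 at -0.74 (SE 0.10, adjusted p 1.7e-05). Of these falls, NDUFA1, NDUFA3, NDUFA13 and NDUFC2 lost their calls without the first day-12 control or the second day-6 control. NDUFA13 and NDUFC2 also lost them without the second day-12 control, and NDUFA3 and NDUFC2 without the first day-6 control. A pair of accessory genes rose in this part, where 32.3% of all genes were lower and 31.7% higher. NDUFC1 (chr4:139266880-139302551, minus strand) went from 19.5 and 20.3 CPM to 31.3 and 30.9 CPM, a rise of 0.64 (SE 0.10, adjusted p 7e-05), and NDUFA10 (chr2:239892450-240025402, minus strand) from 85.3 and 86.8 CPM to 116 and 108 CPM, a rise of 0.38 (SE 0.0812, adjusted p 0.000748). In both genes every day-12 library was above every day-6 one.

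In complex III no gene rose: 4 of 9 fell without FGF2 and 6 of 9 with it, beside the 32.3% and 32.9% of all genes that were lower, and all 9 log2 values were below 0 in both arms. The count with FGF2 was 9 without the first day-6 FGF2 library and 4 without the second. UQCRC1, a core subunit, had 188 and 188 CPM on day 6 and 139 and 140.3 CPM on day 12, and fell by 0.43 (SE 0.0899, adjusted p 0.000645). UQCRFS1, the Rieske iron-sulphur protein that passes electrons towards cytochrome c, had 61.5 and 69.2 CPM and then 49.0 and 51.9 CPM and fell by 0.37 (SE 0.11, adjusted p 0.00874). UQCRFS1 lost this call without the second day-6 control (log2 change -0.29) or the first day-12 control (-0.35). UQCRQ lost its call without any single control library (-0.30 to -0.38). UQCRC2 lost its call without either day-6 control (-0.26 and -0.24) or the second day-12 control (-0.19). The count of falls without FGF2 thus rested partly on single libraries, and UQCRC1 kept its call.

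Among 13 complex IV genes tested, 7 fell and 1 rose without FGF2, and 8 fell and 1 rose with it, where 32.3% and 32.9% of all genes were lower. Of the falls without FGF2, COX4I1 lost its call without the first day-12 control or the second day-6 control, and COX5A without any single control library. COX7B lost its call without the first day-12 control. With FGF2, 12 fell and none rose without the first day-6 FGF2 library, and 6 fell and 1 rose without the second. COX6B1, a subunit on the intermembrane side, had 188 and 189 CPM on day 6 and 108 and 127 CPM on day 12, a change of -0.68 (SE 0.11, adjusted p 5.55e-05). COX8A fell by 0.57 (SE 0.11, adjusted p 0.000226) and COX5B by 0.51 (SE 0.11, adjusted p 0.001). The 1 rise was NDUFA4L2, a paralog of NDUFA4 known to be induced by low oxygen. It had 2.23 and 3.09 CPM on day 6 and 6.57 and 7.43 CPM on day 12 (52 to 174 counts over the 8 libraries), and rose by 1.39 (SE 0.20, adjusted p 1.72e-05) without FGF2 and by 0.59 (SE 0.19, adjusted p 0.012) with it. The rise with FGF2 lost its call without the first day-12 FGF2 library (adjusted p 0.0715) and without the first day-6 FGF2 library (0.0689). NDUFA4 itself, with 194 and 201 CPM and then 155 and 184 CPM, did not pass the test (-0.22, adjusted p 0.0908).

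**Figure D2:**
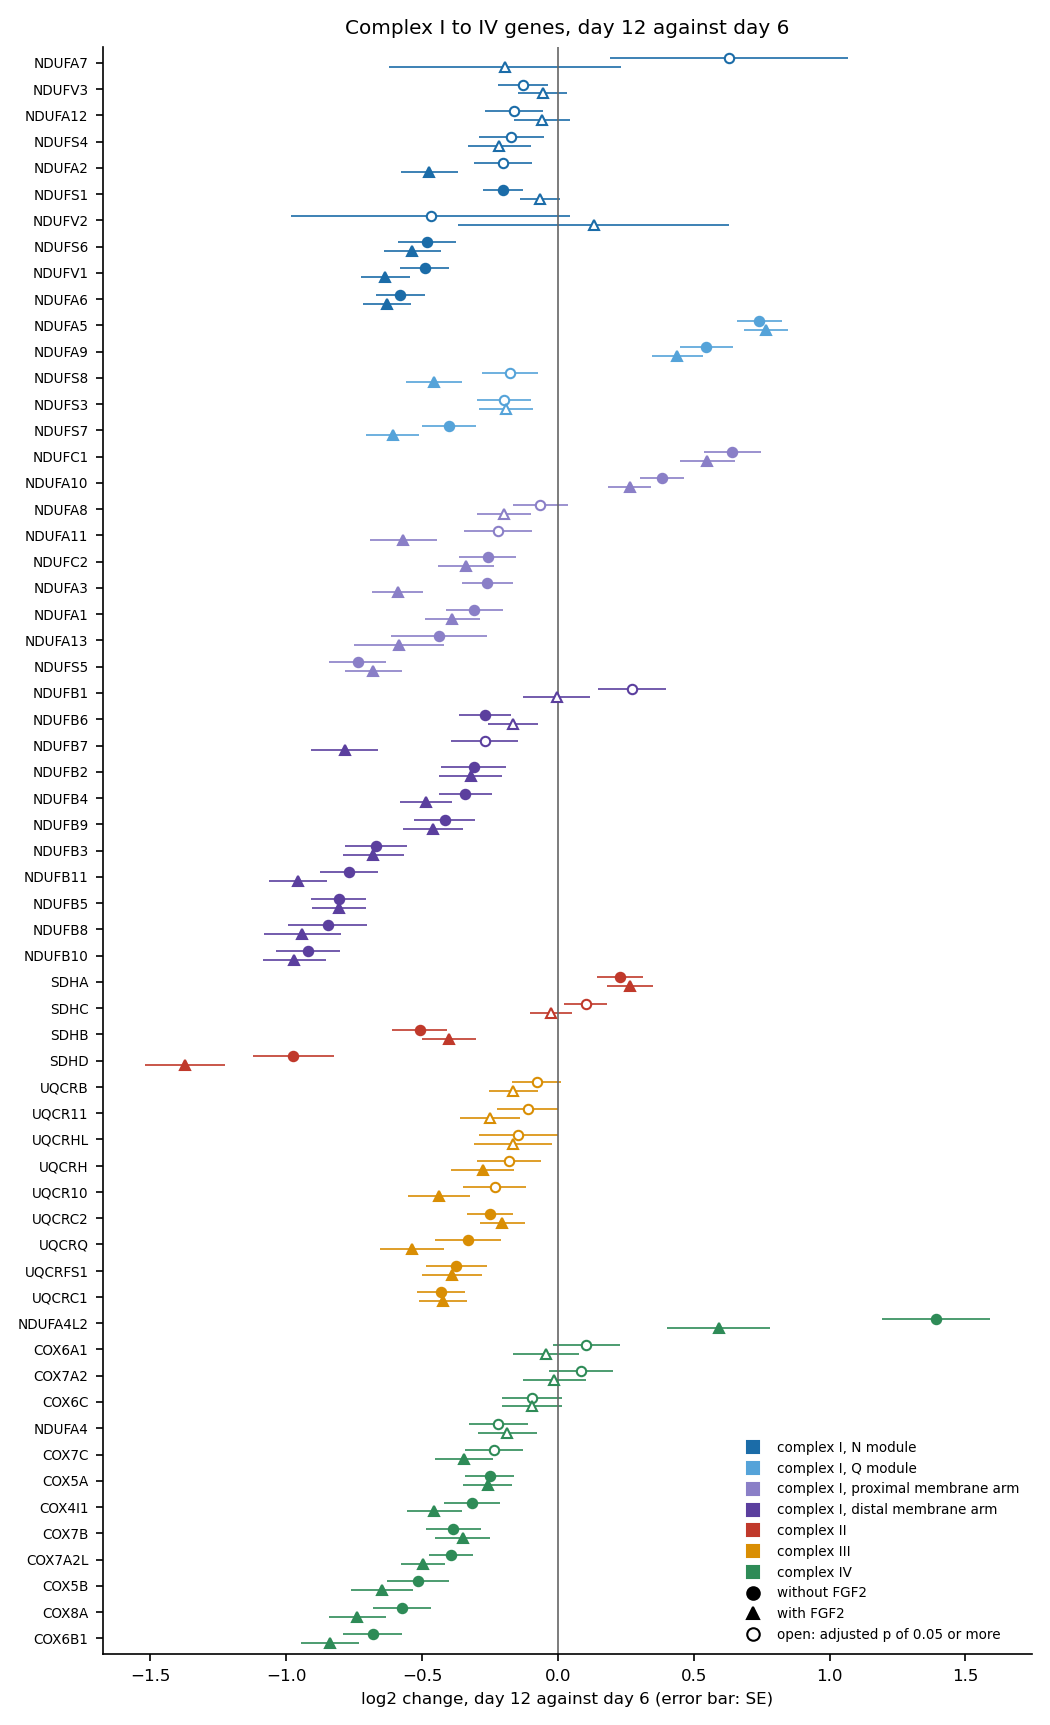
Log2 change from day 6 to day 12 (horizontal axis, error bars 1 SE) of 61 of the 62 genes tested, coloured by complex and part of complex I, as circles without FGF2 and triangles with FGF2, filled where the adjusted p was under 0.05. NDUFA5, NDUFA9, NDUFC1, NDUFA10, SDHA and NDUFA4L2 are filled to the right of 0 in both arms, and in the distal membrane arm all but NDUFB1, NDUFB6 and NDUFB7 are filled to the left in both.

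Of the genes with a promoter in the table, 5 of 28 that fell without FGF2, 2 of 5 that rose and 3 of 18 that did not pass the test had an NRF1 match, and 9, 0 and 5 had an ETS match. No ETS match stood in a gene that rose, and these small counts were not tested.

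Over all genes the change from day 6 to day 12 moved with exon length. Without FGF2, and among genes with a mean of at least 10 CPM, those with up to 2000 exon bases had a median log2 change of -0.47 (1075 genes), those with 2000 to 5000 had -0.19 (3656 genes) and those above 5000 had 0.13 (5668 genes). The complex I to IV genes in those classes had medians of -0.29 (26 genes), -0.26 (18 genes) and -0.13 (13 genes). The short ones among them thus had a smaller fall at the median than short genes at large, and the part of length in the results was not tested. NDUFA5 and NDUFA9 are long (9851 and 10391 exon bases), whereas NDUFC1, which rose too, has 1941 and NDUFB10 has 1070.

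**Figure D3:**
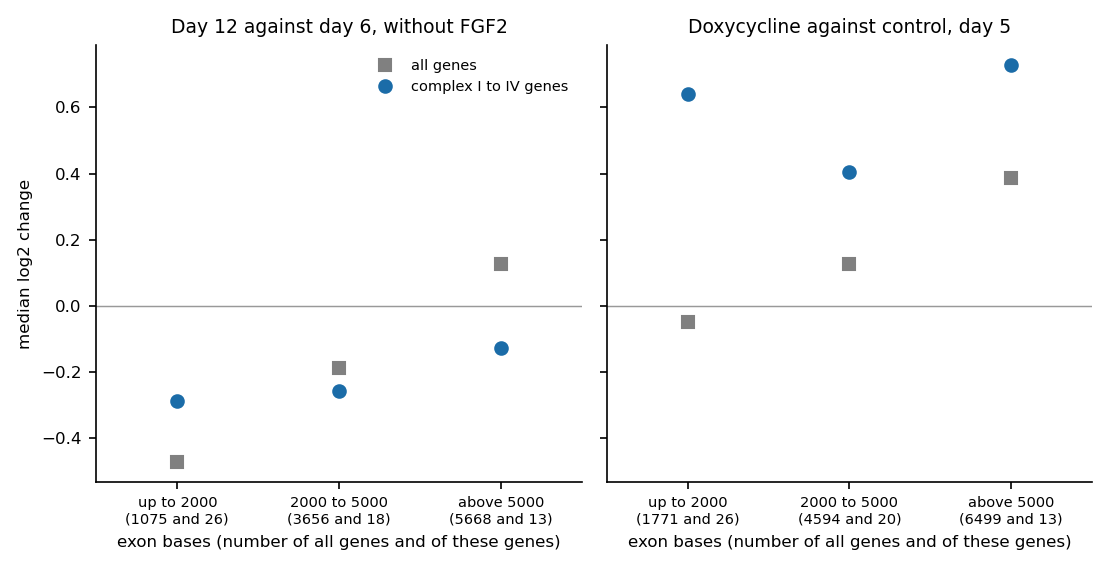
Median log2 change (vertical axis) of all genes (grey squares) and of the complex I to IV genes (blue circles) in 3 classes of exon length, for day 12 against day 6 without FGF2 (left) and for doxycycline against control on day 5 (right). On the left both sets move with length, from -0.47 to 0.13 for all genes and from -0.29 to -0.13 for these genes, and on the right these genes lie above all genes in each class.

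For FGF2 in the final 6 days no gene was called with all libraries in the fit, a count near the background. None of the 62 passed the test on day 12 (edgeR, Benjamini-Hochberg), where 2.17% of 20142 genes did (1.63% higher and 0.536% lower). At an unadjusted p under 0.05 there was 1 of the 62, against 10.7% of all genes. The log2 differences ran from -0.56 to 0.19 with a median of 0.055. The smallest adjusted p was 0.41, for NDUFA4L2, which had 5.54 and 5.01 CPM with FGF2 and 6.57 and 7.43 CPM without (-0.41, SE 0.18). UQCRC1 had 158 and 154 CPM with FGF2 and 139 and 140.3 CPM without, and its difference of 0.16 (SE 0.0898) had an adjusted p of 0.575 (edgeR). In the authors' deposited limma table UQCRC1 alone among the 62 was called higher (adjusted p 0.0439), against 4.17% of genes higher and 3.2% lower. The authors' deposited DESeq2 table called none, against 2.81% higher and 1.9% lower. A fit of the day-12 groups alone also called UQCRC1.

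FGF2 in the first 6 days gave a result that rested on 1 library. With all libraries none of the 62 genes, and 0.0% of all genes, passed the test on day 6 (edgeR, smallest adjusted p 0.927), and 5 had an unadjusted p under 0.05, against 3.27% of all genes. Neither of the authors' deposited tables called any gene. Yet 59 of the 62 log2 values were above 0, with a median of 0.14. Without the first FGF2 library, 40 of the 63 genes then tested were higher and none lower, against 5.56% and 6.41% of all genes, with the lone FGF2 library assumed to vary like the other groups. Without the second, none was called.

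NDUFS8, a core subunit near the coenzyme Q site, had 72.3 and 69.5 CPM in the controls, 73.2 CPM in the first FGF2 library and 94.0 CPM in the second. COX6B1 had 188 and 189 CPM in the controls, then 196 and 247 CPM. In both genes the second FGF2 library stood far above the controls, and the first was above both controls by much less. Most genes were not above the controls in the first: 19 of 58 lay above the control mean there (median log2 ratio -0.020), against 56 in the second. SDHA, at 53.9 and 49.5 CPM and then 50.0 and 50.8 CPM, and NDUFS1, at 174 and 165 CPM and then 165 and 157 CPM, were the pair not at their highest in the second FGF2 library. Short genes were high in that library as a class: the median log2 ratio over the day-6 controls was 0.24 for 1103 genes of up to 2000 exon bases, 0.11 for 3588 of 2000 to 5000 and -0.097 for 5421 above 5000, beside 0.30 for the complex I to IV genes. The part of length in this was not tested.

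**Figure D4:**
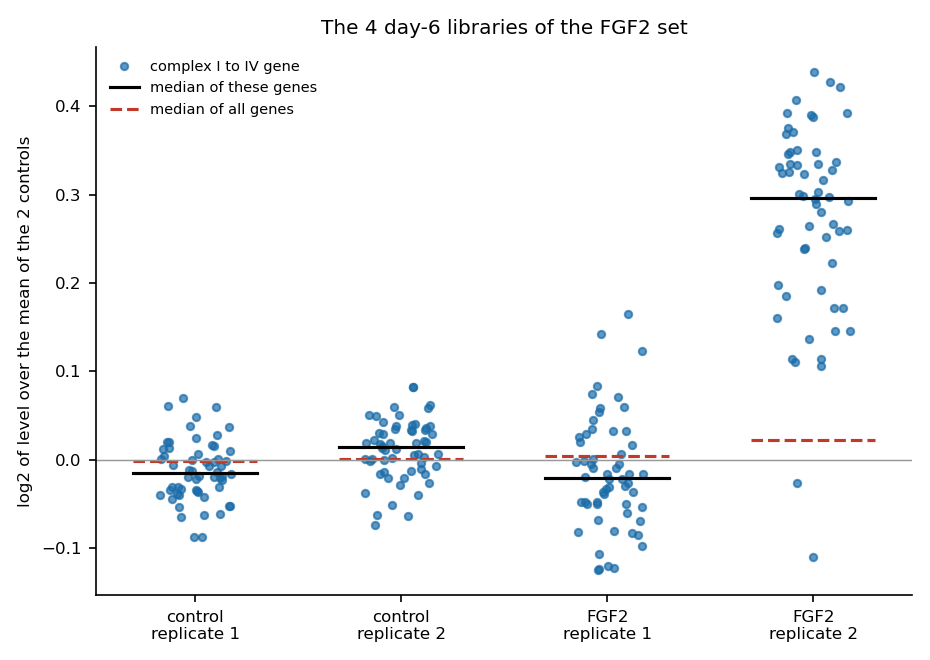
Log2 of each gene's level over the mean of the 2 day-6 controls (vertical axis) for 58 complex I to IV genes in the 4 day-6 libraries, with their median (black line) and that of all genes (dashed red line). In the second FGF2 library 56 of 58 genes lie above the controls around a median of 0.30, while in the first they scatter around -0.020.

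The difference between the late and the early FGF2 effect was tested directly. None of the 62 genes passed (edgeR), against 0.645% of all genes higher, 0.0844% lower and 0.73% in either direction, and 3 had an unadjusted p under 0.05, against 7.32%. Without the first day-6 FGF2 library 8 genes were lower, against 2.07% of all genes (4.32% higher): COX5B, UQCRQ, NDUFS8, COX4I1, NDUFB7, NDUFA3, UQCR10 and NDUFB11, named after their values were seen. Without the second none was, against 0.471% lower and 1.21% higher.

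Doxycycline, which switches NEUROG2 on, went with higher levels of most of these genes in the set with 1 library a group. No test is possible there, so a gene was counted as different at 2-fold or more, with at least 10 CPM in either library and 1 CPM added to both. On day 5, 10 of 59 genes were at least 2-fold higher and 2 lower with doxycycline, where 29.1% of 12895 genes were higher and 21.1% lower. Their median log2 ratio was 0.57 beside 0.23 for all genes, and 45 of the 59 were above 0. On day 11, 5 of 58 were higher and 1 lower, against 24.6% and 21.2% of 12655 genes, with medians of 0.43 and 0.16. Scaling by library totals in place of TMM moved the median of all genes to 0.059 on day 5 and -0.18 on day 11, so levels are read against all genes: these genes lay 0.34 and 0.27 above that median with TMM and 0.35 and 0.30 with library totals. In the authors' deposited normalized values they lay 0.35 and 0.18 above it, with 29 of 58 genes above 0 on day 11. The count of 2-fold higher genes under library totals was 5 on day 5 and 2 on day 11, with no share of all genes computed under that scaling.

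Of the 10 genes 2-fold higher on day 5, 9 were among the 33 complex I genes compared, a share near the 29.1% of all genes. NDUFA5 had 40.2 CPM on day 0, 37.9 and 128 CPM on day 5 without and with doxycycline, and 34.4 and 89.5 CPM on day 11. That is 3.37-fold on day 5 (95% exact binomial interval 3.16 to 3.59) and 2.60-fold on day 11 (2.43 to 2.79). NDUFA9 had 12.8, 10.1, 30.1, 11.8 and 39.4 CPM in the same order, or 2.97-fold (2.63 to 3.37) and 3.34-fold (2.98 to 3.74). Both were higher in each doxycycline library than in any library without it. NDUFB3, of the distal membrane arm, was 3.16-fold higher on day 5 (53.1 against 16.8 CPM) and 1.05-fold on day 11 (25.6 against 24.4 CPM). NDUFS1 was 2.41-fold higher on day 5 (159 against 66.0 CPM) and 1.79-fold on day 11 (143 against 79.8 CPM). In complex IV, COX7A2 was 1.92-fold higher on day 5 and 2.18-fold on day 11 (163 against 75.1 CPM).

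SDHD was the lowest of complex II on both days, and below it on day 5 stood only COX6B2 (described above). It had 39.4 CPM on day 0, 33.3 and 9.96 CPM on day 5 without and with doxycycline, and 24.8 and 6.54 CPM on day 11. With doxycycline it was at 0.299 of the control level on day 5 (0.267 to 0.336) and 0.264 on day 11 (0.226 to 0.307). Both doxycycline libraries were below all 3 others. Its partners did not follow on day 11, when SDHA was 1.74-fold higher (59.5 against 34.2 CPM), SDHC 1.30-fold and SDHB 1.23-fold. Those ratios are taken against a control below day 0, when SDHA, SDHC and SDHB had 62.6, 66.3 and 56.6 CPM. With doxycycline on day 11, SDHC (78.9 CPM) was above its day-0 level, whereas SDHA and SDHB (35.9 CPM) were below theirs. On day 5 SDHA and SDHB were at 0.834 and 0.728 of the control level. Per kilobase of exon, SDHD stood between SDHB and SDHA on day 5 without doxycycline (11.7 CPM per kilobase, with SDHB at 20.1, SDHA at 7.71 and SDHC at 4.25) and was the lowest of the 4 with it (3.51, with 14.6, 6.44 and 4.78).

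**Figure D5:**
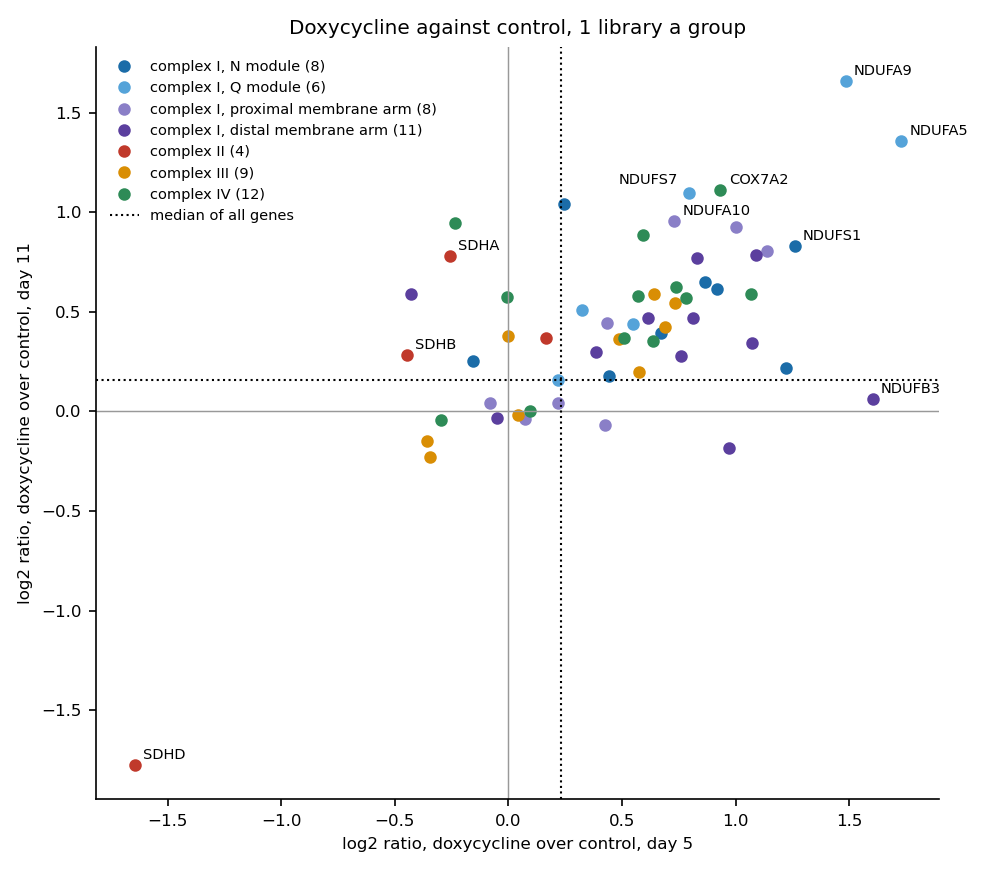
Log2 ratio of doxycycline over control on day 5 (horizontal axis) and day 11 (vertical axis), 1 library a group, for the 58 genes with at least 10 CPM in both comparisons, coloured by complex and part of complex I, with dotted lines at the median of all genes (0.23 and 0.16). Most points lie above and to the right of the dotted lines, NDUFA5 and NDUFA9 farthest, and SDHD lies alone at the lower left.

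Among the doxycycline libraries, levels were lower on day 11 than on day 5. The median log2 ratio was -0.40, beside -0.073 for all genes, and 49 of 57 genes were below 0. NDUFB3 alone was 2-fold lower and none was 2-fold higher, against 4.44% and 3.49% of 11465 genes. NDUFA10 (0.40), NDUFA9 (0.38), UQCRC2 (0.31) and SDHC (0.22) were highest. This comparison shares no sample with the FGF2 set, where doxycycline was given for the first 6 days only. Of the genes that fell from day 6 to day 12 without FGF2, 28 of 31 were below 0 here, close to the 49 of 57 over all these genes, where 6610 of 11465 genes were below 0. Of those that rose, 4 of 5 were above 0, NDUFA5 being the exception. Length moved with this comparison too: genes of up to 2000 exon bases had a median of -0.28 and these genes in that class -0.51, and genes above 5000 had -0.037 and these genes -0.056. For doxycycline against control on day 11, the shortest class of all genes had a median of -0.42, and these genes in that class 0.38.

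Without doxycycline the genes lay near all genes on day 5 and below them on day 11. On day 5, 1 gene (COX6B2) was 2-fold higher than on day 0 and none lower, against 5.62% and 4.33% of 11916 genes, with a median of -0.083 beside -0.12 for all genes. On day 11 none was 2-fold different from day 0, against 5.77% higher and 8.41% lower of 11996 genes, but 53 of 58 were below 0, with a median of -0.43 beside -0.066. COX6A1 (-0.97), SDHB (-0.92) and NDUFB9 (-0.92) were lowest. Summed over the 64 genes, the libraries had 4514 CPM on day 0, 4318 and 5815 CPM on day 5 without and with doxycycline, and 3354 and 4546 CPM on day 11, so the day-11 ratio is taken against a control below day 0.

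The other genes of the pathway moved unevenly from day 6 to day 12 without FGF2 (edgeR), where 32.3% of all genes fell and 31.7% rose. The shares that fell among the factors that assemble complexes I and IV were near that. Of 18 nuclear genes of ATP synthase, which uses the proton gradient that the chain builds, 11 fell and 2 rose, with a median of -0.27, and ATP5B changed by -0.49 (SE 0.0750, adjusted p 3.52e-05). Of the 13 subunits encoded in mitochondria 11 fell and 1 rose, with a median of -0.58, and MT-CO2, a subunit of complex IV that takes electrons from cytochrome c, changed by -1.32 (SE 0.10, adjusted p 2e-08). CYC1, the cytochrome of complex III, which the symbol rule leaves out, changed by -0.59 (SE 0.0887, adjusted p 2.85e-05). Among the factors that assemble complex I, 5 of 16 fell and 2 rose, with NDUFAF6 at 0.79 (SE 0.11, adjusted p 2.17e-05). Of 21 complex IV assembly factors 6 fell and 3 rose, with COA4 at -1.59 (SE 0.10, adjusted p 1.61e-09) and COA7 at 0.98 (SE 0.0947, adjusted p 2.54e-07). Of 12 regulators of respiratory genes 5 fell and 1 rose, among them the nuclear receptor ESRRA, at -1.96 (SE 0.11, adjusted p 3.76e-10), and the coactivator PPARGC1A, at -0.92 (SE 0.14, adjusted p 3.52e-05). With FGF2 on day 12, 1 regulator was higher, ESRRG, at 16.9 ± 0.913 CPM against 10.1 ± 0.191 CPM (SD, n = 2 each, adjusted p 0.00219 by edgeR).

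In the doxycycline set the nuclear and the mitochondrial genes of the chain parted on day 5. All 13 mitochondrial subunits were at least 2-fold lower with doxycycline, against 21.1% of all genes, with a median log2 ratio of -1.91, beside 0.57 for the nuclear genes. The control library of that day was the one apart: mitochondrial genes took 15.0% of its counts and 4.29% to 7.17% in the other 4, and 11 of the 13 were 2-fold higher in it than on day 0, against 5.62% of all genes. On day 11 none of the 13 was lower and 2 were higher, against 21.2% and 24.6% of all genes, with a median of 0.44 beside 0.43 for the nuclear genes. With mitochondrial genes left out of the scaling, the day-5 median of the nuclear genes was 0.57.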

How the data were processed

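RNA was measured in 13 libraries by 50-base single-end sequencing with a kit that does not mark strand, per the labels. Raw count tables, 1 per set, were deposited: the submitters' processing notes name Subread, featureCounts 1.5.0 and the build GRCh38. The annotation release and the handling of shared reads are not given in the sources used here. Gene types, positions and exon lengths came from GENCODE 29.

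For the FGF2 set the deposited counts were fitted with edgeR 4.0.16 (R 4.3.3): TMM scaling, filterByExpr, 1 mean per group over all 8 libraries, quasi-likelihood F test, and Benjamini-Hochberg adjustment over all genes tested, called at an adjusted p under 0.05. The SE is the log2 change over the square root of F. The doxycycline set has 1 library a group, so log2 ratios of TMM-scaled CPM are given with 1 CPM added, and intervals of ratios are exact binomial ones at 95%. The procedure was tested on simulated counts. Depth per library is given in the report, and it limits genes with few counts, such as NDUFV2 and NDUFA7.

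The authors' deposited comparison tables give log2 fold changes and adjusted p-values for FGF2 against control from DESeq2 and limma, per the file headers, and are quoted only where named. They hold 16 columns of per-sample values that were not used. The deposited normalized signal values of the doxycycline set come from the authors' limma voom step, as the deposited file is named. They equal the raw counts times 1 of 6 factors (0.839 to 1.19) that change from gene to gene within a library, for 100.0% of 98338 values above 20 counts (within 0.0001), so they served only as an alternative, scaled by their sums.

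Both forms of each alternative subunit pair, the complex II genes, main core subunits, up to 6 called genes of largest rise and fall with a mean of at least 5 CPM, the 4 highest and lowest ratios of the doxycycline set, the extremes per exon length, and up to 4 called genes of each other list were to be named. The genes, the lists and the split of complex I into parts were chosen with earlier results of these data known. Alternatives covered the scaling, the filter, DESeq2 1.42.0, limma 3.58.1 voom, the samples in the fit, each library left out, exon overlap, pseudocounts of 0.5 and 5, a minimum of 1 CPM, and folds of 1.5 and 4. The values of 1 gene are counted in the totals but not reported here by name.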

Additional observations from a re-analysis of the deposited data

How the results depend on the processing

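No called value changed direction under the alternatives run. Leaving out each library of the FGF2 set in turn gave 0 to 40 genes higher for FGF2 on day 6, 18 to 43 lower from day 6 to day 12 without FGF2, 3 to 6 higher with FGF2, and 0 to 8 lower for the late minus the early effect, where no filter on low counts gave 1. A fit of the day-12 groups alone called 1 gene higher for late FGF2. Keeping genes with at most 10% exon overlap, and so fewer genes, left 19 lower from day 6 to day 12 without FGF2 and 23 with it. The replicate block gave 0 calls for late FGF2, early FGF2 and their difference. From day 6 to day 12 it gave 7 higher and 37 lower without FGF2, and 6 higher and 40 lower with it. The labels do not say whether equal replicate numbers pair the samples. Correlations of deviations between groups were 0.0111 to 0.225, which cannot decide it, so this is no test of a pairing.

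On day 5 of the doxycycline set the 10 genes 2-fold higher became 5 with library totals, 5 with the authors' deposited normalized values, 28 at 1.5-fold and 0 at 4-fold, and the 2 lower became 1 at 4-fold. On day 11 the 5 higher became 3 with 5 CPM added, 2 with library totals, 1 with the deposited values, 20 at 1.5-fold and 0 at 4-fold, and the 1 lower became 2 at a minimum of 1 CPM and 0 at 4-fold. For day 11 against day 5 with doxycycline the 1 lower became 0 with 5 CPM added, library totals, the deposited values and 4-fold, and 11 at 1.5-fold. Without doxycycline, day 5 against day 0 gave 2 higher and 2 lower at 1.5-fold and 1 lower in the deposited values, and day 11 gave 17 lower at 1.5-fold. The cause of these shifts was not tested beyond what each setting changes. Shares of all genes were computed at 2-fold with TMM only, so the counts at other settings cannot be read against all genes. Among the values of single genes followed this way, 513 kept their side of the threshold or moved within the spread, 82 moved further and 11 calls were lost, of SDHA, NDUFA10 and NDUFA4L2. Over all these genes, a left-out library also cost calls of genes near the threshold, such as NDUFS1, UQCRFS1 and NDUFB4.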

Other observations

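Genes around the chain that the report does not describe also moved from day 6 to day 12 without FGF2 (edgeR, Benjamini-Hochberg), where 32.3% of all genes were lower and 31.7% higher. Of 22 genes of mitochondrial protein import 13 fell and 2 rose, and TIMM50, a subunit of the inner membrane translocase, changed by -2.46 (SE 0.0794, adjusted p 6.48e-13). TIMM8B, a small import chaperone, changed by -0.95 (SE 0.10, adjusted p 1.05e-06). Of 13 coenzyme Q synthesis genes 3 fell and 3 rose, with ADCK3 at -3.92 (SE 0.0912, adjusted p 2.6e-14) and COQ4, which takes part in the same synthesis, at 0.79 (SE 0.10, adjusted p 7.25e-06). Of 13 citric acid cycle genes 5 fell and 2 rose, and OGDH, a subunit of the oxoglutarate dehydrogenase complex, changed by -0.84 (SE 0.0776, adjusted p 1.5e-07). None of 13 genes for copying and transcribing mitochondrial DNA rose and 5 fell. Of 4 complex II assembly factors 1 fell and 1 rose, and of 6 complex III assembly factors 3 fell and 2 rose.

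Glycolysis genes went both ways over the same days, with 9 of 17 lower and 4 higher without FGF2 (median -0.30) and 4 lower and 5 higher with it (median -0.0026). The difference between the arms was tested gene by gene, and none of the 17 was called. ENO2, the neuronal enolase, changed by 3.17 (SE 0.14, adjusted p 1.65e-11) and TPI1 by -1.11 (SE 0.0892, adjusted p 2.97e-08). On day 12, 3 of the 17 (against 1.63% of all genes) were higher with FGF2 than without, namely the phosphofructokinase PFKP by 0.88 (SE 0.14, adjusted p 0.0016), the enolase ENO1 by 0.60 (SE 0.12, adjusted p 0.0133) and LDHA, which makes lactate, by 0.65 (SE 0.14, adjusted p 0.0189). With doxycycline on day 11 (1 library a group, no test), 9 of 17 were at least 2-fold lower and 3 higher, against 21.2% and 24.6% of all genes, with a median log2 ratio of -1.18.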
